A study of Mus musculus with 4 samples.

Results

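The activity-induced immediate early genes were taken as 36 genes by their symbols, out of 24100 genes in the count tables, and each symbol matched 1 row in all 4 tables. They were described in RNA bound to tagged ribosomes (IP) and in whole-tissue RNA (Input) of prefrontal cortex from male adults of the Crh-IRES-Cre line, which makes Cre recombinase from the Crh (corticotropin-releasing hormone) locus. The 3 IP libraries and the Input library each held tissue of 5 males, all 4 carried the same line, and the labels name no treatment. Ribosomes carrying EGFP were captured with antibodies to EGFP. Which allele or vector supplied the tag, the time and manner of killing, and whether the Input shared animals with an IP are not stated in the labels. No stimulation is named in the labels. The name of the group describes what the genes are known for and not a treatment in these mice.

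Immediate early genes are transcribed within minutes of a rise in calcium, cyclic AMP or growth factor signalling, without new protein synthesis. In neurons, kinases activate CREB at the cyclic AMP response element (CRE) and serum response factor at the CArG box of their promoters. Many of the products are transcription factors that act on later genes, others are phosphatases that turn the kinases off again, and a few act at synapses. Their RNAs are short-lived, and AU-rich elements in the 3′ UTR are a known reason. In cortex their levels are used as marks of recent neuronal activity.

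Promoter windows of RefSeq (build GRCm38.p6), from 250 bases before to 50 bases after a start site, were found for 28 of the 36 genes and for 27025 genes in all. Arc, Dusp4, Egr1, Egr3, Ier2, Nptx2, Sik1 and Trib1 had no window and were not searched. Sites further from a start site than the window were not searched in any gene. The CRE core site, TGACG on either strand, was in a window of 21 of the 28 genes (75.0%) and of 23.1% of all genes with a window, and per window it was in 58.5% of 41 windows and 20.8% of 32851. The full CRE, TGACGTCA, which holds a core site on each strand, was in 5 of the 28 (17.9%, against 2.03% of all genes), namely Btg2, Dusp1, Maff, Plk2 and Ppp1r15a. The CArG box, searched by its consensus, was in Dusp5 and Egr2 (7.14%, against 1.81%). The AP-1 motif was searched as TGANTCA, with any middle base, which is looser than its consensus with C or G there. It matched a single window of Bdnf, as TGAATCA (3.57% of genes, against 8.97%). The EGR motif GCGTGGGCG was in a window of Maff (3.57%, against 0.707%). The TATA box, TATAAA on either strand, was in 6 genes (21.4%, against 15.7%). These matches are descriptions of letters in a window and not of binding, and genes with several start sites had more than 1 window. The background here was all genes with a window, tested or not, and was not matched for base composition.

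**Figure D1:**
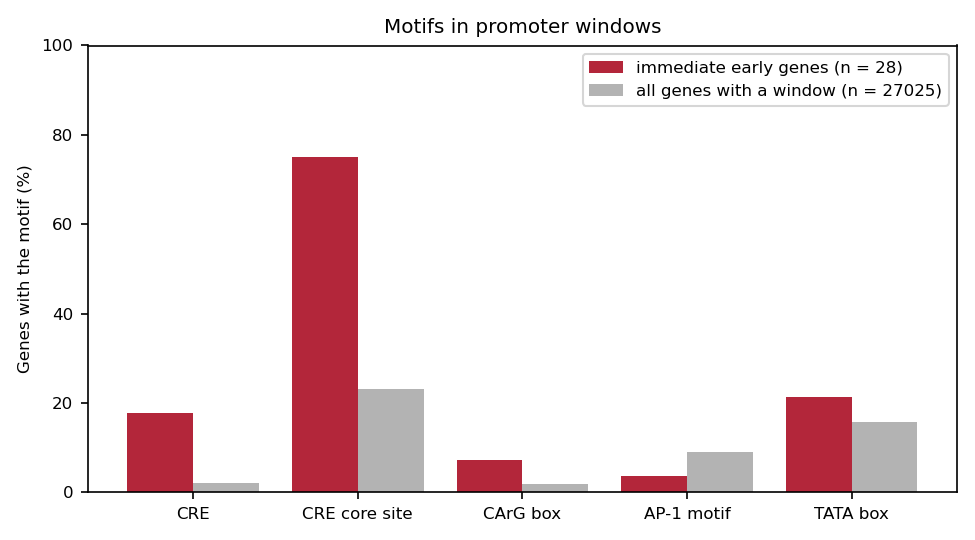
Share of genes (%, y axis) with each of 5 motifs (x axis) in a promoter window, for the immediate early genes with a window (red, 28 genes) and for all genes with a window (grey, 27025 genes). The CRE core site was in 75.0% of the immediate early genes and 23.1% of all genes.

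The windows of 6 genes are shown as examples that hold a core site, chosen after the motifs were seen from genes with all 3 IP libraries on 1 side of the Input. The first 3 genes lay below it and the others above it. Capitals mark CRE core sites and CArG boxes, and each sequence runs 5′ to 3′ on the strand of its gene.
Egr2 (chr10:67537619-67537918, plus strand): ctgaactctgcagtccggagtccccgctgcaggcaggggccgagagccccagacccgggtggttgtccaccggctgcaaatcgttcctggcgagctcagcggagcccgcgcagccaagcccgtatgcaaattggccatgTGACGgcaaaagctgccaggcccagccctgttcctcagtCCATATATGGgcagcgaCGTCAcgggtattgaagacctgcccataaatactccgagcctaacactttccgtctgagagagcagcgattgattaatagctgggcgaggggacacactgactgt
Egr4 (chr6:85513540-85513839, minus strand): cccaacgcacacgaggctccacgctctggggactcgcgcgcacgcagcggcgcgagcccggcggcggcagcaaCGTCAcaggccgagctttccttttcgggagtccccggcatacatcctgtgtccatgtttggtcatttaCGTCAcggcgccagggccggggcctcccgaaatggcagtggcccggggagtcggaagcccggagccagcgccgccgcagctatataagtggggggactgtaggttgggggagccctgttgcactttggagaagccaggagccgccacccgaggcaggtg
Homer1 (chr13:93303507-93303806, plus strand): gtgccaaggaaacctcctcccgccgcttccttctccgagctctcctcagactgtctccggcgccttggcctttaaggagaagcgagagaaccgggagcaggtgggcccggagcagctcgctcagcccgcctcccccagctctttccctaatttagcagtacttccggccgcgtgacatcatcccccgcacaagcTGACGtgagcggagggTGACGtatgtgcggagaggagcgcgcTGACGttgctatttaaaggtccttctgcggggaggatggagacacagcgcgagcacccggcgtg
Fos (chr12:85473640-85473939, plus strand): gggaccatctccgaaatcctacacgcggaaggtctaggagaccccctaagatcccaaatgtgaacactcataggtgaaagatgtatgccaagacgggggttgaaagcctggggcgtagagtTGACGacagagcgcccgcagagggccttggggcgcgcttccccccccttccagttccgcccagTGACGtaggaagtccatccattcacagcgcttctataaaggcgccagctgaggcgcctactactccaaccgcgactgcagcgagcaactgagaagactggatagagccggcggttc
Plk2 (chr13:110394794-110395093, plus strand): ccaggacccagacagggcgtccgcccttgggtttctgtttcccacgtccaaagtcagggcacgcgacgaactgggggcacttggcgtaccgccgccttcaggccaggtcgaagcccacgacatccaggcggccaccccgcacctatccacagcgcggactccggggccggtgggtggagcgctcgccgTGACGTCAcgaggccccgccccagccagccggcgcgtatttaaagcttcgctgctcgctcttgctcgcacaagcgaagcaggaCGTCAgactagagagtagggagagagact
Dusp5 (chr19:53528895-53529194, plus strand): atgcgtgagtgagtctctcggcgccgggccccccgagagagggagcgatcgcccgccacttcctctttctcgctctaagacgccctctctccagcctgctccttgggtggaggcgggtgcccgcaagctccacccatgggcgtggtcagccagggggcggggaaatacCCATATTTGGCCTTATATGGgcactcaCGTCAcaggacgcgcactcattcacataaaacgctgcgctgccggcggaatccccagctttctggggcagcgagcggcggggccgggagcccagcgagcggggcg
In Egr2 the CArG box began at -72 relative to the start site, between core sites that began at -111 and -55. Dusp5 had CArG boxes at -82 and -72 with no base between them, and a core site at -55. In Fos the core site nearest the start began at -66, the full CRE of Plk2 began at -62, and Homer1 had core sites at -56, -40 and -14. Among the other members with a window and all 3 IP libraries on 1 side, Atf3, Bdnf and Nr4a2, all below the Input, held a core site in a window. Jun and Inhba, below it, and Fosl2, above it, held none.

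In the 3′ UTR of the transcript with the longest coding sequence, the AU-rich nonamer ATTTATTTA was found in 5 of 35 tested members (14.3%), against 5.92% of 13505 tested genes with a 3′ UTR. Only that transcript of each gene was searched. Other forms, such as the short, activity-induced form of Homer1 described below, were not. The median 3′ UTR was 1189 bases in the members and 1030 bases in all. The pentamer ATTTA occurred 2.45 times per 1000 bases of 3′ UTR in the members and 1.84 times in all. The first nonamer of each of the 5 genes is shown in a window of 30 bases (GRCm38), with nonamers in capitals, because these are the tested members that held one.
Fos (chr12:85477101-85477130, plus strand): tgtgttttcaATTTATTTAttaagatggat
Dusp1 (chr17:26506156-26506185, minus strand): gctggtccttATTTATTTAacacccccctc
Homer1 (chr13:93402593-93402622, plus strand): tgctttttaaATTTATTTAtgatatctaca
Plk3 (chr4:117128701-117128730, minus strand): attaacagacATTTATTTAttgggatgtga
Ppp1r15a (chr7:45522954-45522983, minus strand): gtttcctattATTTATTTATTTATTTAttt
Ppp1r15a held 3 overlapping nonamers in a 3′ UTR of 76 bases. Exon bases, merged over all annotated transcripts of a gene, had a median of 3189 in the tested members, against 4569 in all tested genes. In 4 members all exon bases lay in a single block.

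Values below are CPM after TMM scaling of the library sizes, and the Input had no replicate. Errors of CPM values are SDs of the 3 IP values, and errors of log2 folds are SEs of the fit. Total counts were 10031072 to 23548375 in the IP libraries and 14474529 in the Input. A single count was worth 0.0436 to 0.107 CPM in the IP libraries and 0.0600 CPM in the Input. Crh was at 289 ± 184 CPM in IP and 1.32 CPM in the Input. All 10 markers shared by GABAergic neurons lay above the Input in all 3 IP libraries, as did 19.7% of all tested genes. Of these markers 5 were higher past the threshold, beside 0.41% of all tested genes. Of 16 excitatory neuron markers 12 lay below the Input in all 3 (24.1% of all tested genes) and 0 above, and none was at 0 counts. Whether separate animals gave each IP library is not in the labels, and p-values reflect spread among libraries that may be technical.

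The summed level of the 36 immediate early genes was 2233, 2236 and 2335 CPM in IP 1, 2 and 3, against 3626 CPM in the Input. Egr1, Egr3, Homer1, Plk2 and Arc made up 58.6%, 64.9% and 60.1% of that sum in the IP libraries and 76.1% in the Input. Of the 36 genes 35 reached the tested set, for which high counts in 1 library were enough. Atf3 did not, and 30 had at least 10 counts in each library. Of the 35 tested genes 0 differed between IP and Input by the quasi-likelihood test of edgeR at an adjusted p under 0.05, where 0.458% of 14636 genes did. Higher in IP were 0 (background 0.41%) and lower in IP were 0 (background 0.0478%). At an unadjusted p under 0.05 there were 4 (11.4%, background 4.43%), of which 3 were lower in IP, Egr1, Egr3 and Homer1 (background 1.23%), and 1 higher, Dusp5 (background 3.2%). DESeq2 called 1 of the 35, Egr3, and limma-voom called 2, Egr1 and Egr3.

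In direction, 11 of the 35 had every IP value under the Input (31.4%, background 24.1%), 5 lay above it in all 3 (14.3%, background 19.7%), and in 19 the IP libraries lay on both sides. These shares lay near the background. The median log2 fold of the tested members was -0.22, beside 0.083 over all tested genes. By role, every IP value was under the Input in 1 of 7 tested AP-1 factors, 5 of 10 Egr, Nr4a, Npas4 and Klf factors, 0 of 13 phosphatases, kinases and stress regulators, and 5 of 5 synaptic and secreted products. Every IP value was above it in 2 AP-1 factors and in 3 phosphatases, kinases and stress regulators, and in 0 genes of the other roles. No test compared the roles.

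**Figure D2:**
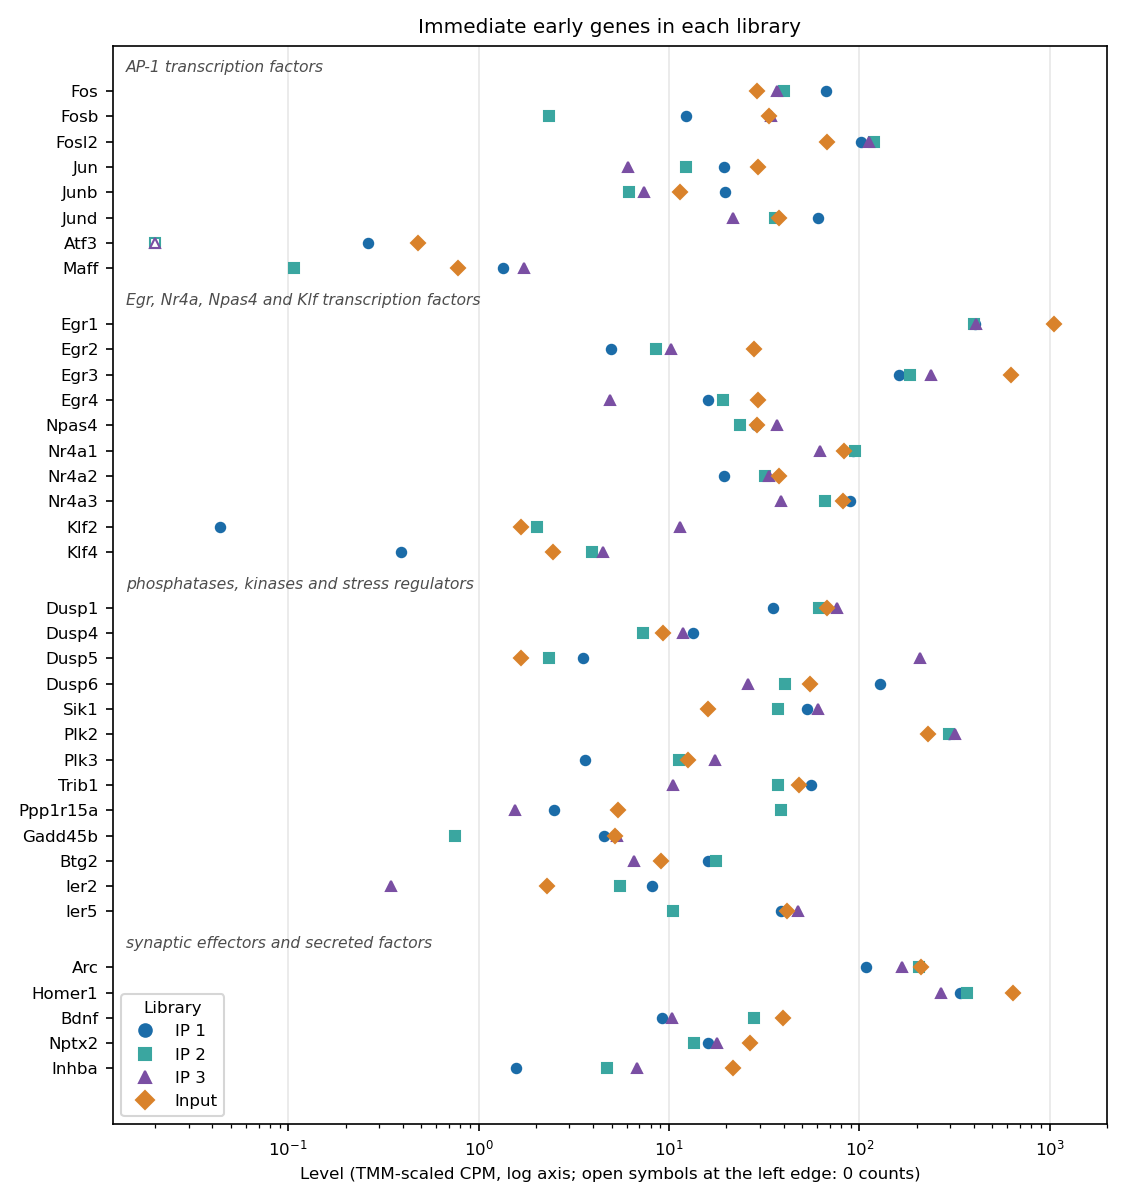
Level of each immediate early gene (rows, grouped by role) in each library, as TMM-scaled CPM on a log axis, with open symbols at the left edge for 0 counts. All 4 Egr genes and all 5 synaptic and secreted products have their 3 IP symbols left of the Input, and Dusp5 has IP 3 at 208 CPM with the other libraries between 1.68 and 3.53 CPM.

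Among the transcription factors, the Egr family of zinc-finger proteins lay lower in IP throughout. Its 4 genes summed to 588, 612 and 663 CPM in the IP libraries, against 1732 CPM in the Input. Egr1, also known as Zif268, was at 406, 400 and 410 CPM in IP 1, 2 and 3, against 1047 CPM in the Input. The 3 IP libraries differed by at most 1.03-fold and did not overlap the Input. The log2 fold of Egr1 was -1.37 ± 0.33 (SE, edgeR quasi-likelihood test, adjusted p = 0.0963).

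Egr3 (chr14:70077203-70082614, GRCm38, plus strand, protein coding) is a relative of Egr1 that neurons also induce. It was at 161, 184 and 237 CPM in the IP libraries, against 627 CPM in the Input, and the groups did not overlap. Its log2 fold was -1.69 ± 0.38 (SE, edgeR quasi-likelihood test, adjusted p = 0.0549). The adjusted p of Egr3 ran from 0.00118 to 0.0637 over 12 alternatives, and it passed under 9 of them. That of Egr1 ran from 0.000951 to 0.221, and it passed under 5. Their direction was the same under all 12.

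The other Egr genes had lower levels and wider errors. Egr2, known as Krox20 from hindbrain and Schwann cells, was at 4.97, 8.55 and 10.3 CPM in IP, against 27.9 CPM in the Input (log2 fold -1.82 ± 1.08). Egr4 was at 16.1, 19.1 and 4.91 CPM in IP, against 29.3 CPM in the Input (-1.13 ± 1.02). Neither passed the test, although neither overlapped the Input.

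Npas4, a bHLH-PAS factor that in brain is made almost only by neurons after calcium entry, was at 28.8, 23.7 and 37.0 CPM in IP, against 29.1 CPM in the Input. Its IP libraries lay on both sides of the Input (log2 fold 0.034 ± 0.85). The orphan nuclear receptor genes of the Nr4a family summed to 201, 192 and 135 CPM in IP, against 203 CPM in the Input. Nr4a1, the gene of Nur77, averaged 83.2 ± 18.2 CPM in IP (n = 3) and was at 82.9 CPM in the Input. Nr4a2, the gene of Nurr1, lay below the Input in all 3 (28.3 ± 7.68 CPM in IP and 37.7 CPM in the Input), and Nr4a3 averaged 64.6 ± 25.1 CPM in IP, against 82.2 CPM in the Input. None of these passed the test.

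Klf2 and Klf4, zinc-finger factors also known from endothelial cells, differed most between IP libraries among these factors. Klf2 had 1, 19 and 133 counts in IP 1, 2 and 3, against 28 in the Input, which is 0.0436, 2.03 and 11.5 CPM against 1.68 CPM. Klf4 was at 0.392, 3.96 and 4.48 CPM in IP, against 2.46 CPM in the Input. Both were lowest in IP 1 and highest in IP 3. Of 14 endothelial markers 11 lay above the Input in all 3 IP libraries (background 19.7%) and 1 below (background 24.1%). Their summed level was 179, 553 and 258 CPM in IP 1, 2 and 3, against 48.5 CPM in the Input, and none was at 0. By edgeR 0 of the 14 passed, while DESeq2 called 2, limma-voom called 0, and 4 had an unadjusted p below 0.05. That sum was lowest in IP 1 as well but highest in IP 2. The part of endothelial RNA in the levels of Klf2 and Klf4 was not tested.

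The AP-1 factors, which pair Fos and Jun proteins on DNA, did not share a direction. Fos, the most used mark of recent activity, was at 66.6, 40.4 and 36.9 CPM in IP, against 29.1 CPM in the Input. Fosl2, the gene of Fra-2, was at 102, 120 and 113 CPM in IP, against 67.7 CPM in the Input. Both lay above the Input in all 3 IP libraries, with log2 folds of 0.72 ± 0.79 and 0.72 ± 0.56, and neither passed the test. Fosl2 varied little between the IP libraries, with a coefficient of variation of 8.37%. The median over all tested genes was 51.5%, but genes of similar level were not compared. Egr1 (1.26%) and Plk2 (4.18%) varied less than Fosl2.

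Fosb, whose stable splice form ΔFosB is not told apart by counts per gene, was at 12.3, 2.35 and 34.4 CPM in IP, against 33.7 CPM in the Input. Its IP libraries spanned 14.6-fold, and its log2 fold was -1.04 ± 1.10, or -2.19 without IP 3. Jun was at 19.5, 12.3 and 6.12 CPM in IP, against 29.2 CPM in the Input, below it in all 3 (log2 fold -1.21 ± 1.01). Junb averaged 11.1 ± 7.49 CPM in IP, against 11.5 CPM in the Input. Jund averaged 39.4 ± 19.6 CPM, against 38.0 CPM, but 52.6% of its exon bases lie in an antisense gene. Whether the counting used strand was not given, so reads of such pairs may not have been told apart.

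The least abundant AP-1 partners were near the limit of the counts. Maff, a small Maf protein, had 31, 1 and 20 counts in IP and 13 in the Input. Atf3, a factor of the stress response, had 6, 0 and 0 counts in IP 1, 2 and 3, against 8 counts in the Input (0.480 CPM). The 0 counts allow up to 3 counts, which is 0.321 CPM in IP 2 and 0.259 CPM in IP 3, for counting error only.

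**Figure D3:**
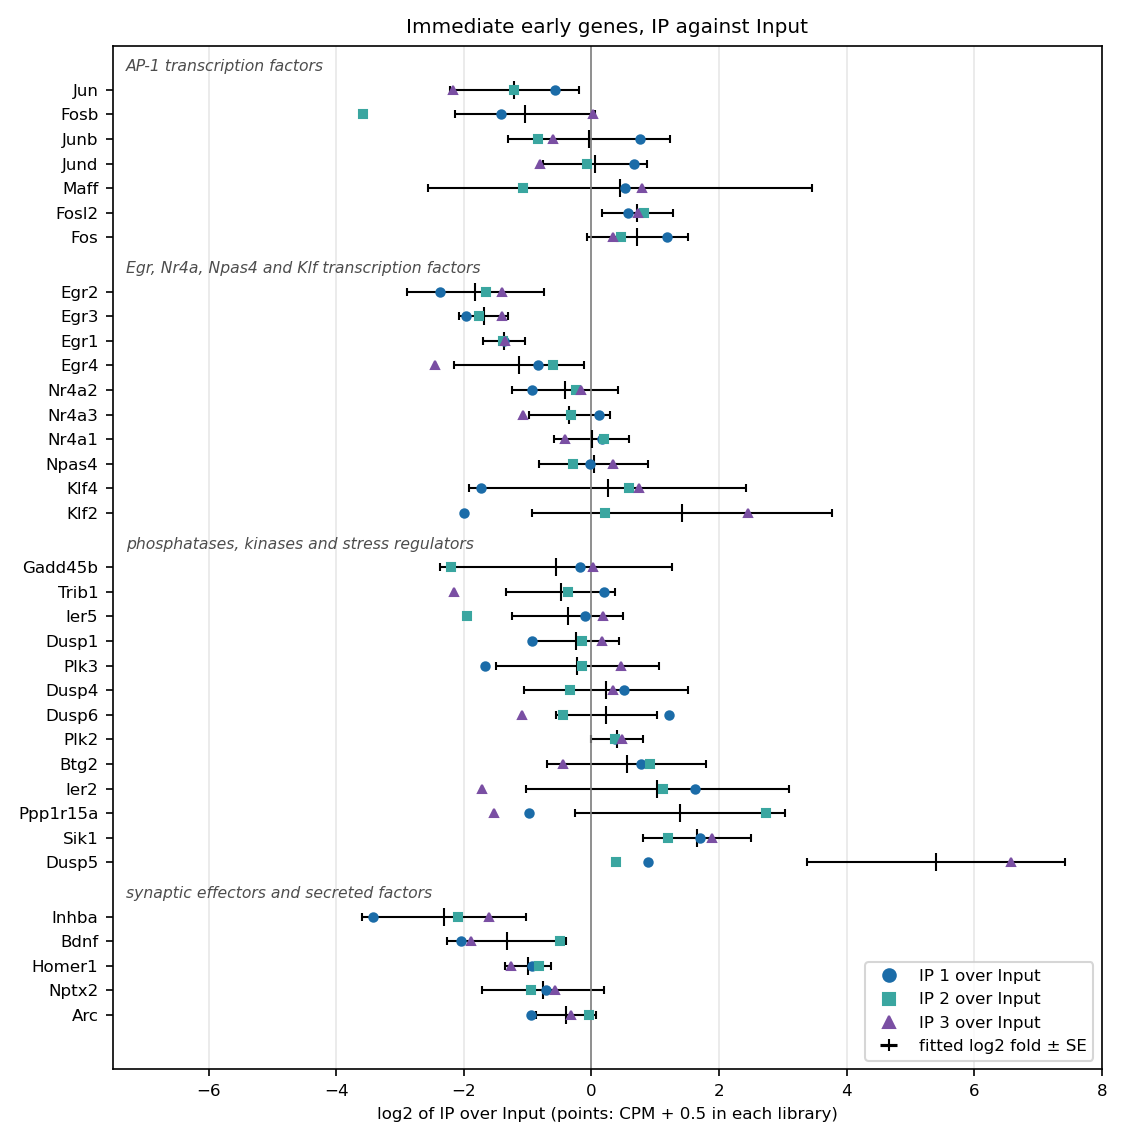
The log2 of IP over Input (x axis) for the 35 tested immediate early genes (rows, grouped by role), with coloured points for each IP library (0.5 CPM added to both) and black bars for the fitted log2 fold ± SE. Egr1, Egr3 and Homer1 have all 3 points and the whole bar below 0, and the bar of Dusp5 at 5.40 is carried by IP 3.

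The products that act at synapses or are secreted were Arc, Homer1, Bdnf, Nptx2 and Inhba. Homer1 encodes a scaffold of the postsynaptic density, with a short form induced by activity that counts per gene do not separate from the long forms. It was at 338, 366 and 270 CPM in the IP libraries, against 645 CPM in the Input. The groups did not overlap, and its log2 fold was -0.99 ± 0.36 (SE, edgeR quasi-likelihood test, adjusted p = 0.687). Its adjusted p was at least 0.116 under the 12 alternatives.

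Arc, which encodes a capsid-like protein that promotes removal of AMPA receptors, was at 109, 205 and 168 CPM in IP, against 211 CPM in the Input. IP 2 was close to the Input, and the log2 fold was -0.39 ± 0.47. Bdnf, the gene of brain-derived neurotrophic factor, was at 9.24, 28.0 and 10.3 CPM in IP, against 39.8 CPM in the Input (-1.33 ± 0.935). IP 2 was the highest of the 3, and without it the log2 fold of Bdnf was -2.02. An antisense gene covers 14.4% of the exon bases of Bdnf.

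Nptx2, a secreted pentraxin that gathers AMPA receptors at synapses onto interneurons, was at 16.0, 13.6 and 17.8 CPM in IP, against 26.6 CPM in the Input (-0.75 ± 0.96). Inhba, a subunit of activin A, was at 1.57, 4.70 and 6.81 CPM in IP, against 21.6 CPM in the Input. Inhba had the lowest log2 fold of the tested members (-2.31 ± 1.29). None of the 5 passed the test. The median of their log2 folds was -0.99, beside 0.083 over all tested genes.

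Most markers of excitatory neurons also lay lower in IP. The median log2 fold of that list of 16 was -1.09, with 1 member lower past the threshold (background 0.0478%). Its summed level was 3550 to 6565 CPM in the IP libraries, against 5651 CPM in the Input. Camk2a, the most abundant member, was at 2590, 4976 and 4160 CPM in IP 1, 2 and 3, against 2902 CPM in the Input. Its log2 fold was 0.43 ± 0.34, opposite in sign to the median of the list. Without Camk2a the summed level was 961 to 1589 CPM in IP, against 2749 CPM in the Input. Of 10 astrocyte markers 9 had every IP value under that of the Input (background 24.1%). Their list had a summed level of 1684 to 2847 CPM in IP, against 2747 CPM in the Input, and none was at 0. In bulk RNA, fewer cells of a type and less RNA per cell cannot be told apart. IP held ribosome-bound RNA and the Input whole-tissue RNA, so the share of each RNA on ribosomes also enters the ratio and was not measured. The part of excitatory or glial RNA in the levels of the Egr and synaptic genes was not tested.

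Among the phosphatases that end MAP kinase signalling, Dusp5 stood apart in a single library. Dusp5 (chr19:53529109-53542431, GRCm38, plus strand, protein coding), a nuclear phosphatase of ERK, had 81, 22 and 2413 counts in IP 1, 2 and 3, against 28 in the Input. These are 3.53, 2.35 and 208 CPM, against 1.68 CPM. All 3 IP libraries were above the Input, and only IP 3 was far from it. The log2 fold was 5.40 ± 2.02 (SE, edgeR quasi-likelihood test, adjusted p = 0.732). It was 2.60 with limma-voom on the same libraries and 0.81 without IP 3. Over 12 alternatives the adjusted p had a lowest value of 2.94e-07, and the 3 that passed all included IP 3. An antisense gene covers 22.1% of the exon bases of Dusp5.

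The other dual-specificity phosphatases had no such library. Dusp6, a cytoplasmic phosphatase of ERK, was at 129, 40.5 and 25.9 CPM in IP, against 55.3 CPM in the Input, with IP 1 highest. Dusp1 averaged 57.5 ± 20.7 CPM in IP, against 67.8 CPM in the Input. Dusp4 averaged 10.9 ± 3.20 CPM in IP, against 9.29 CPM in the Input.

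Among the kinases, Sik1 and Plk2 lay above the Input in all 3 IP libraries. Sik1, a salt-inducible kinase that restrains the CREB coactivators of the CRTC family, was at 52.8, 37.2 and 60.8 CPM in IP, against 16.0 CPM in the Input. Its groups did not overlap, and its log2 fold was 1.66 ± 0.84 (SE) and did not pass by edgeR. Under the 12 alternatives its lowest adjusted p was 0.306. Plk2, a polo-like kinase that weakens synapses after sustained activity, was at 296, 296 and 318 CPM in IP, against 229 CPM in the Input (0.41 ± 0.41). The IP values of Plk2 had a coefficient of variation of 4.18%. Plk3 averaged 10.8 ± 6.92 CPM in IP, against 12.5 CPM in the Input.

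Among the stress and growth regulators, Ppp1r15a also depended on 1 library. Ppp1r15a encodes GADD34, which directs a phosphatase to the initiation factor eIF2α. It was at 2.48, 38.7 and 1.55 CPM in IP, against 5.40 CPM in the Input. IP 2 lay above the Input, and the others lay below it (log2 fold 1.40 ± 1.65). Its log2 fold was -1.41 without IP 2. Dusp5 and Ppp1r15a were the members whose highest IP library was at least 10-fold above the next, which is 2 of 35 (5.71%), beside 4.15% of all tested genes.

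The remaining regulators overlapped the Input. Trib1, a pseudokinase, averaged 34.6 ± 22.8 CPM in IP, against 48.5 CPM in the Input. Ier5 averaged 32.3 ± 19.4 CPM in IP, against 41.9 CPM. Btg2, an antiproliferative protein, averaged 13.4 ± 5.98 CPM in IP, against 9.11 CPM. Gadd45b, a relative of stress sensors linked to DNA demethylation, averaged 3.56 ± 2.46 CPM in IP, against 5.22 CPM in the Input. Ier2 had 186, 52 and 4 counts in IP, against 38 in the Input.

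Variation between the IP libraries was like that of other genes in size. The median coefficient of variation over the 3 IP libraries was 49.7% in the tested members and 51.5% in all tested genes. It was 30.6% for the Egr, Nr4a, Npas4 and Klf factors, 30.2% for the synaptic and secreted products and 64.1% for the phosphatases, kinases and stress regulators. In 7 of the 35 the highest IP library was at least 10-fold the lowest (20.0%, against 23.6% of all). IP 3 was the highest library for 18 of the 35 (51.4%), beside 31.6% of all tested genes, and IP 1 for 9 (25.7%), beside 35.2%.

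Per kilobase of exon, Egr1 was the most abundant member in both fractions, at a mean of 90.4 CPM per kilobase in IP and 234 in the Input. In IP it was followed by Plk2 (67.6), Arc (52.6), Egr3 (44.1) and Dusp5 (28.8, from IP 3), in CPM per kilobase. In the Input it was followed by Egr3 (142), Arc (68.9), Homer1 (53.9) and Plk2 (51.0). Fos was at 20.4 CPM per kilobase in IP and 12.4 in the Input. Exon lengths were merged over all transcripts of a gene in GENCODE M21, which may differ from the annotation the counts used.

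**Figure D4:**
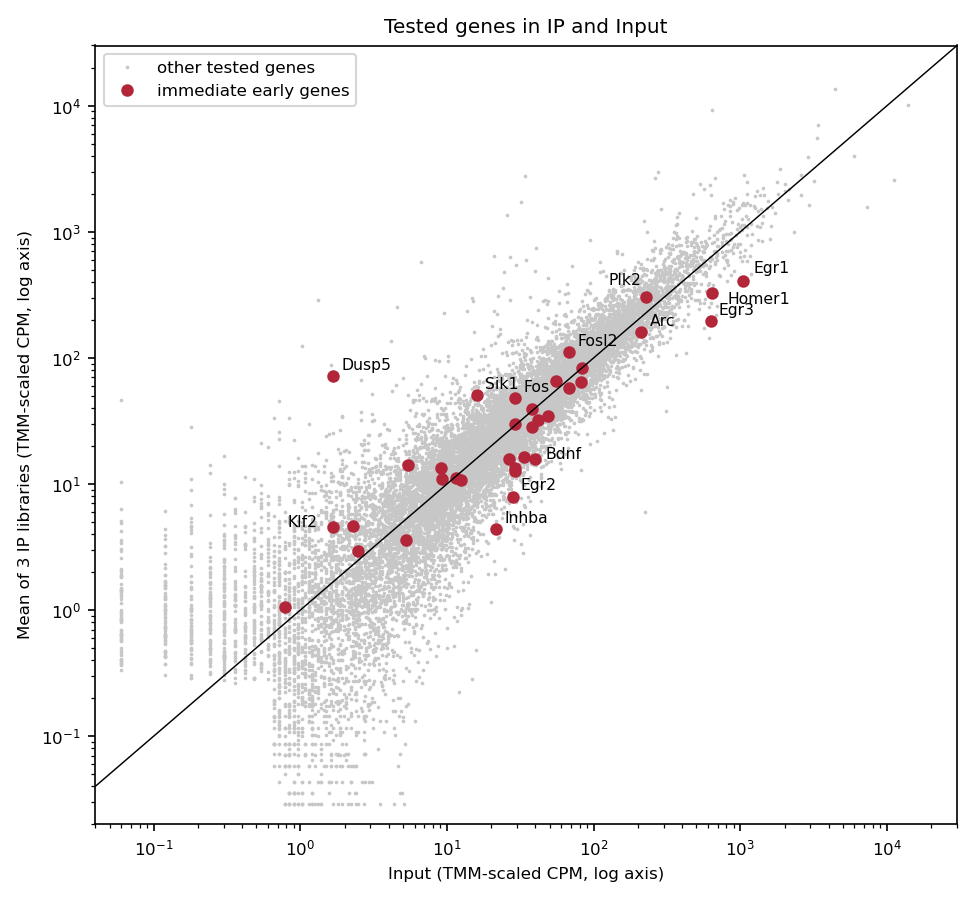
Mean of the 3 IP libraries (y axis) against the Input (x axis), both as TMM-scaled CPM on log axes, for immediate early genes (red) and other tested genes with counts in both fractions (grey), with the line of equal level. Egr1 and Egr3 lie below the line at 405 and 194 CPM in IP, and Dusp5 lies far above it at a mean of 71.3 CPM that rests on IP 3.

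Genes upstream of this program were described from a list of 31 kinases, phosphatases, coactivators and transcription factors. By edgeR 0 of the 31 passed. DESeq2 and limma-voom called 0 as well, and 1 had an unadjusted p below 0.05. In 11 all 3 IP libraries lay below the Input (background 24.1% of tested genes) and in 5 above it (background 19.7%). The median log2 fold of the list was -0.18, beside 0.083 over all tested genes. Mef2c, an activity-regulated factor of neurons, averaged 1105 ± 155 CPM in IP, against 1304 CPM in the Input. Ppp3ca, the catalytic subunit of calcineurin, averaged 781 ± 86.2 CPM, against 1173 CPM. Mkl2, a coactivator of serum response factor, averaged 794 ± 244 CPM in IP, against 957 CPM in the Input.

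Of 31 other tested activity-responsive genes 1 rose (background 0.41%) and 1 fell (background 0.0478%), with 2 called by DESeq2 and 1 by limma-voom. Scg2, the precursor of the peptide secretoneurin, rose to 488, 387 and 557 CPM in the IP libraries, against 110 CPM in the Input. Its log2 fold was 2.12 ± 0.45 (SE, edgeR quasi-likelihood test, adjusted p = 0.0338). The call of Scg2 ended under 6 of the 12 alternatives, among them limma-voom (adjusted p = 0.0540) and the fit without IP 3 (0.0543), in a range of 0.000106 to 0.0870. Nrn1, the gene of neuritin, fell to 38.7, 31.5 and 42.9 CPM in the IP libraries, against 311 CPM in the Input. Its log2 fold was -3.04 ± 0.48 (SE, edgeR quasi-likelihood test, adjusted p = 0.00225), and it passed under all 12. An antisense gene covers 22.3% of the exon bases of Nrn1.

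Other abundant genes of that list had every IP value under the Input without passing. Rasgrp1, an activator of Ras, averaged 1101 ± 273 CPM in IP, against 1625 CPM in the Input. Rgs4, a brake on G-protein signalling, averaged 271 ± 82.1 CPM in IP, against 568 CPM. Nptx1, a pentraxin like Nptx2, averaged 80.5 ± 15.4 CPM, against 207 CPM. In the list as a whole 13 genes lay below the Input in all 3 (background 24.1%) and 5 above it (background 19.7%), with a median log2 fold of -0.31, beside 0.083 over all tested genes.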

How the data were processed

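RNA on tagged ribosomes was sequenced from prefrontal cortex in 3 IP libraries and 1 Input library. The values are raw counts per gene as the authors deposited them. STAR 2.0.0e, HTSeq and mm10 are named in the submitters' processing notes, with no roles, while the names of the deposited tables hold the word subread, so which tool counted the reads is not settled. The annotation, strandedness and treatment of multiply mapped reads are not given in the sources used here. Here, 24100 genes were filtered with filterByExpr of edgeR 4.0.16 in R 4.3.3 (minimum count 10), which left 14636, then scaled by TMM and tested with the quasi-likelihood test, IP against Input, with Benjamini-Hochberg adjustment over all tested genes and a threshold of 0.05. The fit had 2 residual degrees of freedom, all among IP libraries, so the fit gives the lone Input their spread. The prior had 17.0 degrees of freedom and the biological coefficient of variation was 0.787. The SE is the log2 fold over the root of F. Alternatives included DESeq2 1.42.0 and limma 3.58.1 (voom). The script was tested on simulated data.

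No library was a copy of another (chi-square per degree of freedom at least 84.7). The 9 genes without a symbol held at most 0.0221% of counts. A count of 0 was read as at most 3 counts. Gene positions and lengths came from GENCODE M21 (GRCm38), since the count tables give none. The members and gene lists were chosen with earlier results of these data known. Named were all 36 members, and from each other list the genes past the threshold and up to 3 more of the highest mean CPM, with a few named after their values were seen.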

Additional observations from a re-analysis of the deposited data

How the results depend on the processing

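The count of 67 genes called became 181 with DESeq2, 108 with no low-count filter, 39 at an adjusted p under 0.01 and 90 to 210 with each IP library left out. Immediate early genes called lower, 0 in the main analysis, were 1 with DESeq2, 1 with a robust prior, 1 among genes of at least 5 CPM, 2 each with limma-voom, upper-quartile factors, library totals and no filter, and 0 to 2 with a library left out. Those called higher were 1 with no filter and 0 to 1 with a library left out, each time Dusp5. Their median log2 fold of -0.22 became -0.49 with limma-voom, -0.44 with upper-quartile factors, -0.50 with library totals and -0.41 among genes of at least 5 CPM. The median over all tested genes, 0.083, became -0.14, -0.13 and -0.19 with limma-voom, upper-quartile factors and library totals, and the calls, 60 higher and 7 lower, became 37 and 14, 51 and 15, and 50 and 15. Members below the Input in every IP library numbered 12, Atf3 included. They were 19 with library totals, 18 with upper-quartile factors, 14 among genes of at least 5 CPM and 13 to 18 with a library left out. The share of all tested genes below the Input, 24.1% in the main analysis, was not counted under these settings, so the larger counts are not a result about the members. Members above the Input in every IP library numbered 5, and 7 to 8 with a library left out. With a library left out, fewer IP values had to lie on 1 side. That rule is looser, so these counts above and below cannot be set against the main ones.

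The log2 folds of single members were compared under 12 alternatives, so a member could be counted several times. Of these values 368 kept their sign and call, and 17 kept their sign and newly passed. Another 30 values changed sign, none past the threshold. With limma-voom these were Maff (-0.013), Klf2 (-1.06), Klf4 (-0.73) and Ppp1r15a (-0.32). With upper-quartile factors they were Jund (-0.16), Npas4 (-0.18) and Nr4a1 (-0.21), and with library totals Jund (-0.21), Npas4 (-0.24), Nr4a1 (-0.27), Klf4 (-0.031), Dusp4 (-0.041) and Dusp6 (-0.024). Among genes of at least 5 CPM they were Jund (-0.059), Npas4 (-0.079) and Nr4a1 (-0.11). Without IP 1 they were Jund (-0.42), Nr4a1 (-0.10), Dusp6 (-0.76) and Plk3 (0.18). Without IP 2 they were Junb (0.25), Nr4a1 (-0.098), Klf4 (-0.022), Ppp1r15a (-1.41) and Ier5 (0.046). Without IP 3 they were Junb (0.18), Maff (-0.067), Npas4 (-0.15), Klf2 (-0.72) and Klf4 (-0.19). The opposite ends, with a library left out, were -0.77 for Junb, 0.35 for Jund, 0.97 for Maff, 0.17 for Npas4, 1.98 for Klf2, 0.76 for Klf4, 0.61 for Dusp6, -0.75 for Plk3 and 1.93 for Ppp1r15a. The cause was not tested. No paired analysis was possible because the single Input shares no 2 replicate numbers with the IP libraries. With 1 Input, its own error is not measured, and members under about 10 counts are limited by depth.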

Other observations

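Other cell type lists gave these values. All 8 markers of the Vip class of interneurons rose by edgeR (background 0.41%), while DESeq2 called 8 and limma-voom 5 of them. The 8 include Crh, the gene whose locus makes Cre, so its rise is a check of the capture. The list had a median log2 fold of 5.41 and a summed level of 4751 to 7769 CPM in IP, against 123 CPM in the Input. Of 12 oligodendrocyte markers 7 had every IP value under the Input (background 24.1%) and 3 had every value above it (background 19.7%). Their list had a summed level of 382 to 603 CPM in IP and 795 CPM in the Input. Of 10 microglial markers 9 had every IP value under the Input (background 24.1%). Their list summed to 23.9 to 39.1 CPM in IP and 103 CPM in the Input, with Aif1, C1qa and Tmem119 at 0 in at least 1 IP library. Of 8 mural cell markers 4 had every IP value above the Input (background 19.7%) and 0 under it (background 24.1%). Their list summed to 154 to 357 CPM in IP and 77.1 CPM in the Input. Cspg4 is in both the oligodendrocyte and the mural list and is counted in each among the markers above the Input.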
